A study of Mus musculus with 13 samples.

Results

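The kinase ATM and 9 further genes of DNA damage checkpoint signalling were followed in thymic lymphomas of 2 mouse genotypes and in normal thymus. The 10 genes were taken by symbol from a table of 43629 genes: Atm, Atr, Chek1, Chek2, H2afx, Trp53bp1, Mdc1, Nbn, Mre11a and Rad50. RNA-seq of polyA RNA was done on thymic lymphomas of 5 different Atm-/- mice of strain 129S6/SvEv, which lack Atm activity, on thymic lymphomas of 5 different Rag2c/c p53-/- mice of mixed C57BL/6 and 129S6/SvEv background, in which RAG2 carries a C-terminal truncation and p53 is deficient, and on thymus of 3 C57BL/6 wild-type (WT) mice re-used from another series. Each library came from a single-cell suspension of the organ and not from sorted cells, and the ages of the mice and the allele behind Atm-/- were not given in the sources used here. Strain and, for WT, the series of the library go with the groups. Genotype, tumor state, strain and series therefore cannot be told apart in the comparisons with WT, nor genotype and strain between the lymphoma groups.

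ATM is the kinase that responds to DNA double-strand breaks. It is recruited and activated by the MRE11-RAD50-NBN complex at the broken end, phosphorylates the histone variant H2AX around the break, and passes the signal through MDC1 and 53BP1 on chromatin and through the effector kinase CHK2 to p53. ATR is the related kinase for single-stranded DNA at stalled forks and resected ends, and acts mainly through CHK1. In the thymus the RAG recombinase makes such breaks at the T cell receptor loci, and mice without ATM are known to develop thymic lymphomas. These proteins are mostly controlled by phosphorylation, which RNA levels do not show.

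Values are normalized counts, that is, read counts per gene that the authors scaled for each library and then rounded. Groups were compared with limma on log2(value + 1), in which a fold change understates the change of low genes, and a gene passed at an adjusted p under 0.05, with Benjamini-Hochberg adjustment over the 15872 genes that reached 10 in 3 or more libraries. All 10 genes were among those tested. Replicates are different mice.

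The libraries differed in ways that bear on long and short genes. The estimated depth was 6.66 to 38.8 M reads in WT, 9.24 to 23.6 M in Atm-/- and 6.37 to 24.7 M in Rag2c/c p53-/-, and replicate 2 was the shallowest of each group. A long-minus-short score, the median log2 level of genes with at least 6203 bases of exon less that of genes with at most 2117 bases, each gene centred over the 13 libraries, was 0.29 to 0.69 in WT, -0.78 to 0.13 in Atm-/- and -0.95 to 0.32 in Rag2c/c p53-/-, with replicate 2 lowest in each group. No Atm-/- library and only replicate 1 of Rag2c/c p53-/- reached the WT range. Score and group therefore cannot be fully told apart in the comparisons with WT. Fits with the score as a covariate extrapolate there, so that calls lost, kept or gained in them carry this limit. The thymocyte marker list, with 8 genes such as Cd3e and Lck, summed to 106633 to 175684 in WT, 66833 to 132667 in Atm-/- and 84260 to 158345 in Rag2c/c p53-/-, and none of its genes was near 0 in any group. The 6 fibroblast markers, collagen genes among them, summed to 390 to 424 in WT, 4201 to 19321 in Atm-/- and 2071 to 3935 in Rag2c/c p53-/-. The 6 myeloid markers summed to 3359 to 3709, 6330 to 10806 and 3688 to 7684, and the 6 B cell markers to 1576 to 1885, 199 to 325 and 219 to 554, in the same order. Sums of the 6 thymic epithelial markers were 725 to 1058, 189 to 609 and 287 to 1320, with Psmb11 near 0 (at most 3 counts in every library of the group) in both lymphoma groups and Foxn1 in Atm-/-. The 5 endothelial markers summed to 3614 to 3724, 3145 to 6189 and 1823 to 5255, with Tek near 0 in WT and Rag2c/c p53-/-, and the 6 erythroid markers to 1040 to 2336, 929 to 6769 and 816 to 4667. The part of these other cells, of depth and of the score in the results was tested only where stated, and fewer cells of a type and less RNA per cell cannot be told apart in bulk tissue.

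The checkpoint genes lie on 6 chromosomes, 5 of them on chromosome 9. In GRCm38 coordinates Atm spans chr9:53439149-53536740 on the minus strand, and its neighbor Npat starts 306 bases away on the plus strand at chr9:53537047. Chek1 lies at chr9:36708482-36727065, H2afx at chr9:44334694-44336077, Atr at chr9:95857597-95951644 and Mre11a at chr9:14784654-14837123. Chek2 lies at chr5:110840017-110874133, Trp53bp1 at chr2:121193281-121271407, Mdc1 at chr17:35841515-35859670, Nbn at chr4:15957925-15992589 and Rad50 at chr11:53649519-53707319. H2afx is the only single-exon gene of the 10 by its annotated length, with 1384 exon bases in a span of 1384 bases, against 10338 exon bases for Atm.

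RefSeq promoter sequences of build GRCm38.p6 were matched for 7 of the 10 genes (Atm, Atr, Chek1, Chek2, Trp53bp1, Mdc1 and Mre11a), but not for H2afx, Nbn and Rad50. The windows, from before to just after each start, were searched on both strands for CCAAT, the GC box GGGCGG, the cell cycle element TTTGAA or TTCGAA, and 4 spellings of the E2F site (TTTCCCGC, TTTCGCGC, TTTGCCGC and TTTGGCGC). E2F spellings were found in Chek2 and Mdc1, 2 of 7 windows, and in 2.3% of all 32817 promoter windows. CCAAT was found in 4 of the 7 and in 37.4% of all, the GC box in 5 of the 7 and in 35.6% of all, and the cell cycle element in 1 of the 7, Atr, and in 19.2% of all. The stretches that follow come from before the start of Atm, between Atm and Npat, and of Chek2 and Mdc1, the pair with an E2F spelling, of which one rose and the other fell in Atm-/- lymphomas. Capitals mark matches to the searched letters.
Atm, chr9:53536741-53536920, minus strand: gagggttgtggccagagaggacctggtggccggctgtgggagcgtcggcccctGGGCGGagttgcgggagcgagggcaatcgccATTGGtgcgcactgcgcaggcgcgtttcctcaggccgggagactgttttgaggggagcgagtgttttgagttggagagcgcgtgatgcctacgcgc
Chek2, chr5:110839803-110839982, plus strand: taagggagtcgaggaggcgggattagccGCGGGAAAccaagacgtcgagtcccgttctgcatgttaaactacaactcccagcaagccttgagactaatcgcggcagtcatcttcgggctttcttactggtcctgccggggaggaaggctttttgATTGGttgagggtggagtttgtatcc
Mdc1, chr17:35841318-35841497, plus strand: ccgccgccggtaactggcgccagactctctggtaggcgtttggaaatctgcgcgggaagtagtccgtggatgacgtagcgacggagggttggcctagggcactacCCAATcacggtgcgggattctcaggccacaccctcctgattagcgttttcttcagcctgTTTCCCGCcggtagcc

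Compared with WT thymus, 6 of the 10 genes passed in Atm-/- lymphomas and 5 of the 10 in Rag2c/c p53-/- lymphomas. Chek1, Chek2, H2afx and Nbn rose in both groups of lymphomas, Atm fell in both, and Mdc1 fell in Atm-/-. Of all genes tested, 44.6% passed in the first comparison, 21.0% as higher and 23.6% as lower, and 37.3% in the second, 17.5% as higher and 19.7% as lower, so that the share of checkpoint genes that passed is not far above the share of all genes. With at least a 2-fold change required as well, 3 of the 10 passed in Atm-/- (Atm, Mdc1 and H2afx) beside 29.9% of all genes, and 2 in Rag2c/c p53-/- (Atm and Nbn) beside 23.8%. The median log2 fold change of the 10 genes was 0.15 in Atm-/- and 0.20 in Rag2c/c p53-/-, and that of all genes tested -0.02 in each. Values of the libraries did not overlap with WT for 3 of the 10 genes in Atm-/- and for 6 in Rag2c/c p53-/-, against 51.3% and 43.9% of all genes. The WT libraries are shared by both comparisons.

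**Figure D1:**
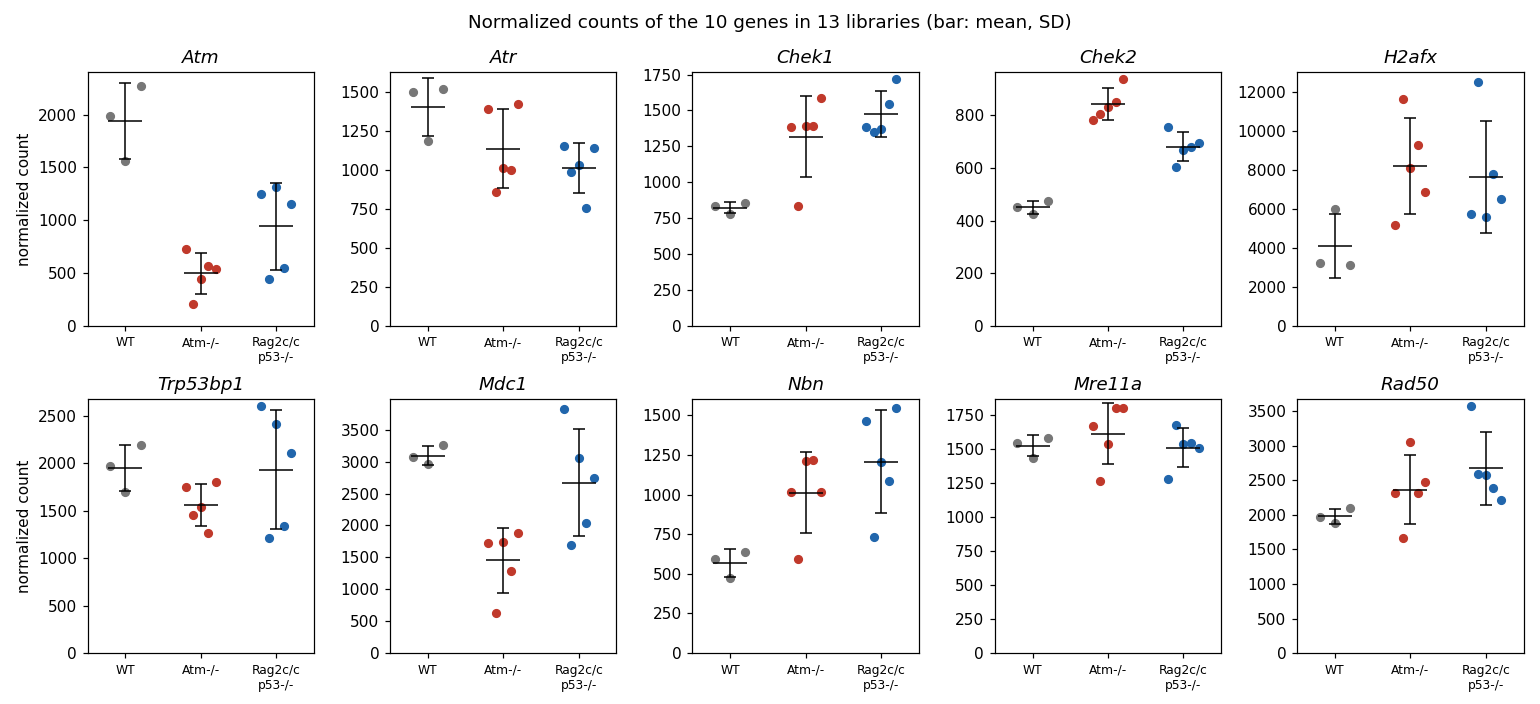
Normalized counts of each of the 10 genes (vertical axes, from 0) in 3 WT, 5 Atm-/- and 5 Rag2c/c p53-/- libraries; each point is a library, and the bars give the mean and SD. Atm was at 1559 to 2274 in WT, above every lymphoma. The 5 Atm-/- libraries stood above the 5 Rag2c/c p53-/- libraries for Chek2 alone, and 8.33% of all genes tested showed no overlap between these groups.

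Atm, the gene whose activity one of the groups lacks by its label, was checked first. Its normalized counts were 1990, 1559 and 2274 in WT, 732, 208, 445, 568 and 534 in Atm-/-, and 1248, 439, 1315, 552 and 1154 in Rag2c/c p53-/-. Every lymphoma was below every WT thymus, but the lymphoma groups overlapped, since 2 of the Rag2c/c p53-/- libraries (replicates 2 and 4) fell among the Atm-/- values. Atm RNA was thus lower but still counted in the Atm-/- lymphomas, at 497 ± 192 (SD, n = 5) against 1941 ± 360 (n = 3) in WT, 4.16-fold lower with a log2 fold change of -2.06 ± 0.42 (SE, limma adjusted p = 0.0017). The table gives a sum over the whole gene, so that it does not tell which exons these reads came from. In Rag2c/c p53-/- lymphomas, in which Atm was not targeted, the mean was 942 ± 413 and the log2 fold change -1.16 ± 0.42 (limma adjusted p = 0.044). The difference between the lymphoma groups, -0.89 ± 0.37, did not pass (limma adjusted p = 0.14). The call in Atm-/- held in all 26 alternative fits, in which the log2 fold change ran from -2.23 to -1.0. The call in Rag2c/c p53-/- held in 15 of 26. It was lost without any 1 of the 3 WT libraries, without Rag2c/c p53-/- replicate 2 or 4, without Atm-/- replicate 3, 4 or 5 (which enter the fit through the shared spread), with equal library totals, without trend and robust moderation, and with the long-minus-short score as a covariate (-0.27, limma adjusted p = 0.39).

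Npat, the divergent neighbor of Atm and a coactivator of histone genes, gave a reference within the same stretch of chromosome 9. It had 1816, 1712 and 2026 counts in WT, 2080, 781, 1774, 1538 and 1954 in Atm-/-, and 2399, 959, 1840, 1374 and 1807 in Rag2c/c p53-/-, and passed in neither comparison with WT (log2 fold changes of -0.26 ± 0.32 and -0.21 ± 0.32, limma adjusted p = 0.52 and 0.64). The ratio of Atm to Npat within a library was 1.10, 0.911 and 1.12 in WT, 0.352, 0.267, 0.251, 0.370 and 0.274 in Atm-/-, and 0.520, 0.458, 0.715, 0.402 and 0.639 in Rag2c/c p53-/-. Unlike the counts of Atm itself, this ratio kept the 3 groups apart with no overlap, although Atm-/- replicate 4 at 0.370 and Rag2c/c p53-/- replicate 4 at 0.402 stood close together. It was given as values, with no test, and the share of other gene ratios that keep the groups apart was not counted. Npat itself was lowest in replicate 2 of each group. On the other side of Atm, 4930550C14Rik averaged 20.3 counts in WT, 309 in Atm-/- and 370 in Rag2c/c p53-/- (log2 fold changes of 3.83 and 4.06, limma adjusted p = 3.08e-06 and 4.34e-06), a change opposite to that of Atm.

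Atr, the kinase of stalled forks, changed less than Atm. Its counts were 1500, 1189 and 1523 in WT, 1395, 861, 1014, 1004 and 1423 in Atm-/-, and 1155, 990, 1035, 756 and 1145 in Rag2c/c p53-/-. The Rag2c/c p53-/- libraries were all below WT while the Atm-/- libraries overlapped with WT, and neither log2 fold change passed (-0.47 ± 0.20 and -0.32 ± 0.20, limma adjusted p = 0.078 and 0.20). The ratio of Atm to Atr was 1.31 to 1.49 in WT, 0.242 to 0.566 in Atm-/- and 0.444 to 1.27 in Rag2c/c p53-/-. It was lower than in WT in every lymphoma of both genotypes, with a log2 difference of -1.74 in Atm-/- and -0.69 in Rag2c/c p53-/- (two-sided exact permutation p = 0.036 each, the smallest that 5 against 3 libraries allow, adjusted p = 0.060 over the 15 ratio tests). Without Rag2c/c p53-/- replicate 2 the latter was -0.46. Between the lymphoma groups the log2 difference was -1.05 (exact permutation p = 0.024, adjusted p = 0.060). Gm16794 and 1700065D16Rik overlap Atr on the opposite strand and averaged 72.4 to 176 and 13.7 to 25.6 counts in the groups. Whether the counting used strand was not given in the sources used here.

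Of the effector kinases, Chek2, the target of ATM, separated all 3 groups. Its counts were 450, 426 and 474 in WT, 783, 804, 830, 852 and 939 in Atm-/-, and 757, 605, 667, 681 and 694 in Rag2c/c p53-/-. Every Atm-/- lymphoma was above every Rag2c/c p53-/- lymphoma, and each of those above every WT thymus. The lymphoma groups came as close as 783 and 757, and 8.33% of all genes tested showed no overlap between them. Chek2 rose by 0.90 ± 0.14 in Atm-/- and by 0.59 ± 0.14 in Rag2c/c p53-/- on the log2 scale (SE, limma adjusted p = 0.00021 and 0.0044), or 1.87-fold and 1.51-fold, and both calls held in all 26 alternative fits. The difference between the lymphoma groups, 0.31 ± 0.12, did not pass (limma adjusted p = 0.11). The head-to-head neighbor Hscb, 239 bases from Chek2, averaged 396 counts in WT, 565 in Atm-/- and 670 in Rag2c/c p53-/-, so that its order between the lymphoma groups was the opposite one, and it passed in Rag2c/c p53-/- (log2 fold change 0.72, limma adjusted p = 0.034) but not in Atm-/- (0.48, adjusted p = 0.13).

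Chek1, the target of ATR, was also higher in lymphomas. Its counts were 836, 780 and 855 in WT, 1384, 836, 1394, 1395 and 1584 in Atm-/-, and 1384, 1348, 1370, 1547 and 1722 in Rag2c/c p53-/-. All lymphomas but one lay above WT, and that one, Atm-/- replicate 2, stood at a WT value. The log2 fold change was 0.65 ± 0.19 in Atm-/- and 0.83 ± 0.19 in Rag2c/c p53-/- (SE, limma adjusted p = 0.013 and 0.0039). The first was lost without WT replicate 2 (adjusted p = 0.051) and the second was kept in all 26 alternative fits. Summed counts of 8 genes of dividing cells were 45201 to 51886 in WT, 43049 to 84613 in Atm-/- and 57617 to 67982 in Rag2c/c p53-/-, and their part in the Chek1 values was not tested. Of these 8 genes, 6 passed as higher in Atm-/- and 4 in Rag2c/c p53-/-, where 21.0% and 17.5% of all genes did. Aurkb, a mitotic kinase (log2 fold changes of 1.16 and 1.26), and Mcm5, a subunit of the replicative helicase (0.89 and 0.75), changed most. Mki67 (0.02 and -0.15) and Bub1 (0.38 and 0.52) passed in neither comparison, and Top2a and Ccnb1 in Atm-/- alone.

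The ratio of Chek1 to Chek2 set the groups of lymphomas apart. It was 1.8 to 1.86 in WT, 1.77, 1.04, 1.68, 1.64 and 1.69 in Atm-/-, and 1.83, 2.23, 2.05, 2.27 and 2.48 in Rag2c/c p53-/-. Each Atm-/- library was below each library of the other groups, although only replicate 2 was far below WT. The log2 difference between the lymphoma groups was -0.49 (exact permutation p = 0.0079, the smallest possible for 5 against 5, adjusted p = 0.060), and that between Atm-/- and WT -0.25 (exact permutation p = 0.036, adjusted p = 0.060). Without Atm-/- replicate 2 the latter was -0.11. None of the 15 ratio tests passed after adjustment, while 5 against 3 libraries cannot reach an unadjusted p below 0.0357.

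**Figure D2:**
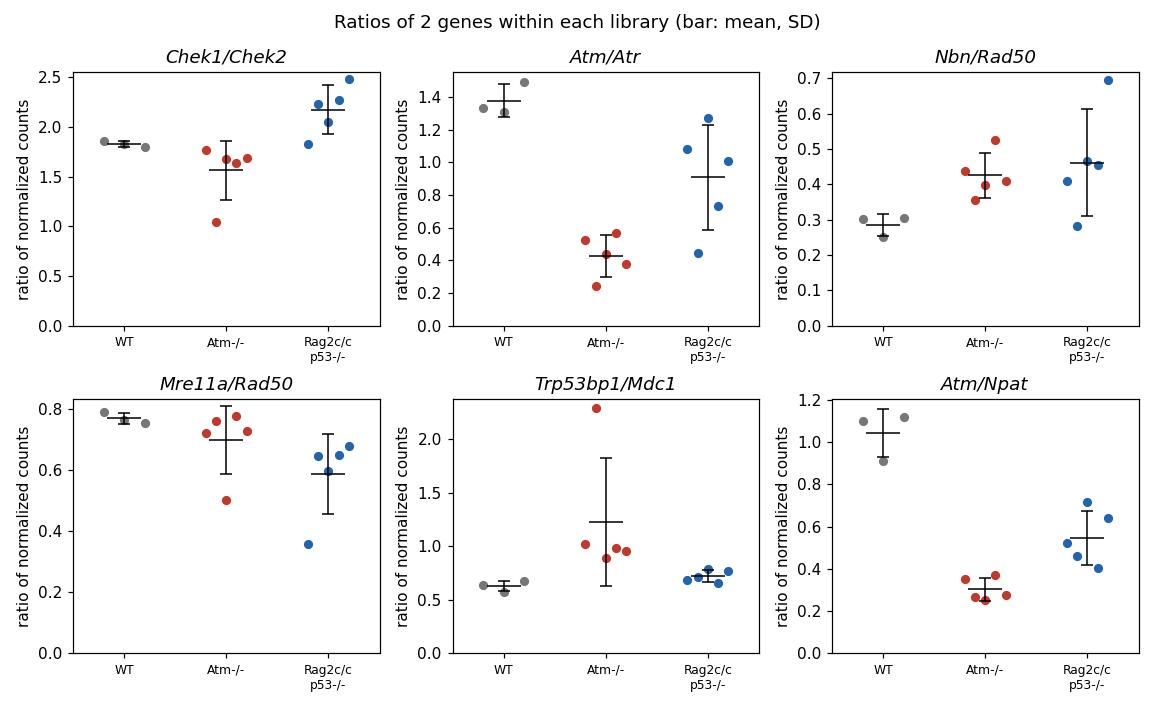
Ratio of normalized counts of 2 genes within each library (vertical axes, from 0) in WT, Atm-/- and Rag2c/c p53-/-; points are libraries and bars the mean and SD. The ratio of Atm to Npat showed no overlap between the groups, at 0.911 to 1.12, 0.251 to 0.370 and 0.402 to 0.715, and that of Trp53bp1 to Mdc1 reached 0.889 or more only in Atm-/-. The Atm to Npat ratio was not tested, and the share of other ratios that keep the groups apart was not counted.

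On chromatin, H2afx, which encodes the histone variant phosphorylated around breaks, had the highest mean count of the 10 genes in each group. Its counts were 3201, 5997 and 3103 in WT, 5174, 11649, 8068, 9260 and 6850 in Atm-/-, and 5748, 12520, 5579, 7794 and 6509 in Rag2c/c p53-/-. The groups overlapped, since WT replicate 2 was above 1 of the Atm-/- and 2 of the Rag2c/c p53-/- libraries. H2afx rose by 1.02 ± 0.31 in Atm-/- and by 0.90 ± 0.31 in Rag2c/c p53-/- on the log2 scale (SE, limma adjusted p = 0.018 and 0.037). Replicate 2, the shallowest library, had the highest H2afx of all 3 groups and the lowest Atm, Chek1, Mdc1 and Nbn. The 5 libraries with a long-minus-short score below 0, all lymphomas, had 7794 to 12520 H2afx counts and the other 8 had 3103 to 6850. H2afx, with 1384 exon bases, is itself among the short genes that make up the score. With the score as a covariate, an alternative chosen after seeing the data, the log2 fold change of H2afx was 0.24 in both comparisons and did not pass (limma adjusted p = 0.31 and 0.29). The call was also lost without WT replicate 1 or 3 in both comparisons, and without Rag2c/c p53-/- replicate 2 or 4, or without trend and robust moderation, in the second. The neighbor Dpagt1, an enzyme of protein glycosylation, passed as higher in both groups of lymphomas (log2 fold changes of 0.88 and 0.68).

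Mdc1, the adaptor that binds phosphorylated H2AX, was low in the Atm-/- lymphomas. Its counts were 3071, 2956 and 3255 in WT, 1719, 633, 1735, 1286 and 1884 in Atm-/-, and 3821, 1692, 3065, 2039 and 2748 in Rag2c/c p53-/-. No Atm-/- library came near WT, while the Rag2c/c p53-/- libraries spread on both sides of it and 1 of them (replicate 2) fell among the Atm-/- values. Mdc1 fell by 1.19 on the log2 scale in Atm-/- (SE 0.33, limma adjusted p = 0.011), or 2.28-fold, and stood at -0.27 ± 0.33 in Rag2c/c p53-/- (adjusted p = 0.55). Between the lymphoma groups the log2 difference was -0.92 ± 0.29 with a limma adjusted p of 0.053, just outside the threshold. It passed in 7 of 26 alternative fits, among them those without Rag2c/c p53-/- replicate 2, without Atm-/- replicate 5 and, added after seeing the data, without the shallowest library of each group. With the score as a covariate, the difference from WT was -0.40 and did not pass (adjusted p = 0.17), while the difference between the lymphoma groups was -0.80 and did (adjusted p = 0.0044).

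Trp53bp1, encoding 53BP1, which protects broken ends from resection, showed no difference that passed. It had 1965, 1696 and 2186 counts in WT, 1751, 1450, 1542, 1260 and 1800 in Atm-/-, and 2604, 1212, 2407, 1336 and 2102 in Rag2c/c p53-/-. The Rag2c/c p53-/- values fell into 2 low libraries (replicates 2 and 4) and 3 high ones, the same split as for Atm. The log2 fold change was -0.32 ± 0.24 in Atm-/- and -0.07 ± 0.24 in Rag2c/c p53-/- (limma adjusted p = 0.29 and 0.84), and with the score as a covariate both signs turned, to 0.22 and 0.39, without passing. Its end overlaps that of Tubgcp4 on the opposite strand, at 1995 to 2441 counts in the groups, and reads of the shared stretch may have been counted to either. The ratio of Trp53bp1 to Mdc1 was 0.574 to 0.672 in WT, 1.02, 2.29, 0.889, 0.980 and 0.955 in Atm-/-, and 0.682, 0.716, 0.785, 0.655 and 0.765 in Rag2c/c p53-/-. Every Atm-/- lymphoma exceeded every other library, with a log2 difference of 0.67 from Rag2c/c p53-/- (exact permutation p = 0.0079) and of 0.86 from WT (exact permutation p = 0.036), and an adjusted p of 0.060 for both. Without Atm-/- replicate 2 the first was 0.42 and the second 0.61.

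In the complex that senses broken ends, the 3 subunits behaved differently. Nbn, which ties the complex to ATM, had 591, 471 and 639 counts in WT, 1013, 591, 1214, 1218 and 1016 in Atm-/-, and 1465, 729, 1205, 1087 and 1548 in Rag2c/c p53-/-. All Rag2c/c p53-/- lymphomas were above WT, and so were 4 of the 5 Atm-/- lymphomas, the exception being replicate 2. Nbn rose by 0.80 ± 0.27 and 1.05 ± 0.27 on the log2 scale (SE, limma adjusted p = 0.029 and 0.0087). The call in Atm-/- held in 21 of 26 alternative fits and was lost without any 1 of the WT libraries and without Atm-/- replicate 3 or 4, whereas the call in Rag2c/c p53-/- held in all 26. Of the neighbors of Nbn, Decr1 passed as higher in both comparisons (log2 fold changes of 0.76 and 1.0) and Osgin2 in neither (-0.42 and -0.17).

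Rad50, the coiled-coil ATPase of the complex, had 1967, 1884 and 2101 counts in WT, 2312, 1660, 3060, 2322 and 2480 in Atm-/-, and 3582, 2594, 2581, 2390 and 2223 in Rag2c/c p53-/-. The Rag2c/c p53-/- libraries were all above WT, but neither log2 fold change passed (0.23 ± 0.19 in Atm-/- and 0.41 ± 0.19 in Rag2c/c p53-/-, limma adjusted p = 0.34 and 0.11). Mre11a, the nuclease, had 1547, 1436 and 1584 counts in WT, 1667, 1261, 1535, 1801 and 1798 in Atm-/-, and 1277, 1675, 1540, 1547 and 1507 in Rag2c/c p53-/-. It was the gene with the smallest change in both comparisons, at 0.07 ± 0.15 and -0.02 ± 0.15 (limma adjusted p = 0.71 and 0.94). The ratio of Nbn to Rad50 was 0.250 to 0.304 in WT, 0.356 to 0.525 in Atm-/- and 0.281 to 0.696 in Rag2c/c p53-/-, above WT in every Atm-/- lymphoma (log2 difference 0.57, exact permutation p = 0.036, adjusted p = 0.060). The ratio of Mre11a to Rad50 was 0.754 to 0.787 in WT and 0.357 to 0.678 in Rag2c/c p53-/-, below WT in every library (log2 difference -0.43, exact permutation p = 0.036, adjusted p = 0.060). Without Rag2c/c p53-/- replicate 1 the difference was -0.26. In Atm-/- it was 0.502 to 0.776 and overlapped with WT (log2 difference -0.16, exact permutation p = 0.18, adjusted p = 0.21, and -0.04 without Atm-/- replicate 3).

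**Figure D3:**
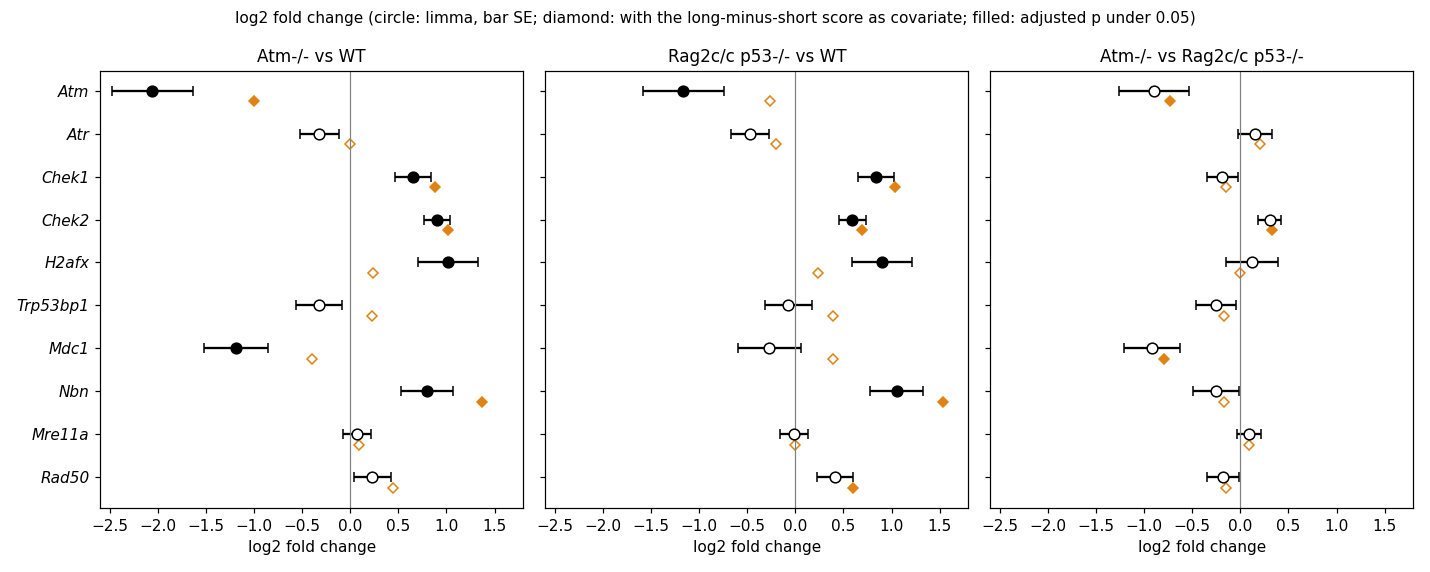
log2 fold change of each gene (horizontal axes) in the comparisons of Atm-/- with WT, of Rag2c/c p53-/- with WT and of Atm-/- with Rag2c/c p53-/-; circles with SE bars are the limma fit, diamonds the fit with the long-minus-short score as covariate, and filled symbols passed at an adjusted p under 0.05. Atm moved from -2.06 to -1.0 in Atm-/- and from -1.16 to -0.27 in Rag2c/c p53-/-, while Chek1, Chek2 and Nbn stayed filled in both comparisons with WT.

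Between the lymphoma groups, none of the 10 genes passed in limma, beside 11.6% of all genes tested. At an unadjusted p under 0.05 there were 3 of the 10, Atm, Mdc1 and Chek2, and the alternative fits called between 0 and 3. Chek2 alone showed no overlap between the groups, beside 8.33% of all genes. With the score as a covariate, Atm (-0.73, limma adjusted p = 0.011), Mdc1 (-0.80, adjusted p = 0.0044) and Chek2 (0.32, adjusted p = 0.031) passed, and these were the 3 called, while the share of all genes called under that fit was 18.7%. For the other 7 genes the log2 differences in the main fit lay between -0.25 and 0.15, with SE of 0.13 to 0.27. A p that misses the threshold does not show that the groups are alike.

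Libraries with like scores were also set side by side. Rag2c/c p53-/- replicates 1 and 3, with scores of 0.32 and 0.28, stood beside WT replicate 2, with 0.29. At these scores Atm was at 1248 and 1315 against 1559 in the WT library, and H2afx at 5748 and 5579 against 5997. Chek1 was at 1384 and 1370 against 780, Chek2 at 757 and 667 against 426, and Nbn at 1465 and 1205 against 471. Mdc1 was at 3821 and 3065 against 2956, and Trp53bp1 at 2604 and 2407 against 1696. Atr was at 1155 and 1035 against 1189, Mre11a at 1277 and 1540 against 1436, and Rad50 at 3582 and 2581 against 1884. The Atm-/- libraries with the highest scores, replicates 1 and 5 at 0.13 and 0.08, had 732 and 534 Atm counts, and Rag2c/c p53-/- replicate 5, at 0.12, had 1154. WT replicate 2 was the shallowest WT library, with the lowest Atm, Chek1, Chek2 and Nbn counts and the highest H2afx count of WT. These are single libraries chosen for their scores and not a test, and the part of the score in these differences was not tested here. Atr and Trp53bp1 divided as H2afx did, but in the other direction: the 5 libraries with a score below 0 had 756 to 1014 Atr counts and 1212 to 1542 Trp53bp1 counts, and the other 8 had 1035 to 1523 and 1696 to 2604. Atr (23629 exon bases) and Trp53bp1 (14164) are among the long genes that make up the score, and H2afx (1384) among the short ones. Their values thus enter the score, and the split is not independent of it. The share of all genes that split in this way was not counted.

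**Figure D4:**
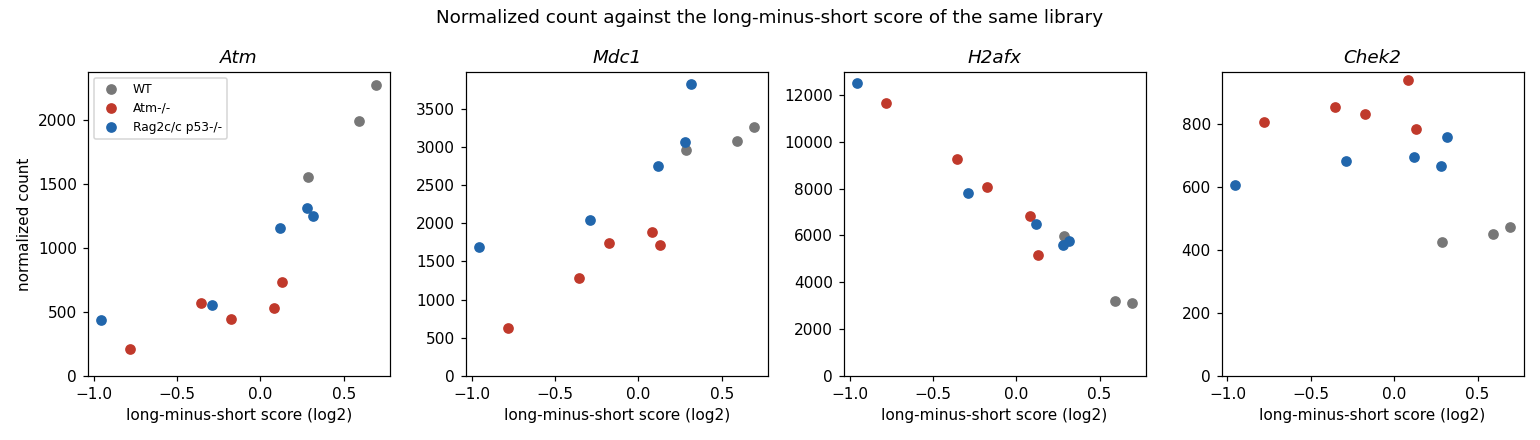
Normalized count of Atm, Mdc1, H2afx and Chek2 (vertical axes, from 0) against the long-minus-short score (horizontal axis, log2) of the same library, with 1 point per library colored by group. H2afx was at 12520 in the library with the lowest score and at 3103 in that with the highest, Atm was highest in the latter, and the Chek2 values of the 3 groups did not overlap.

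Levels were also compared between genes, per kilobase of annotated exon. In WT the order was H2afx (2963 counts per kilobase), Mdc1 (417), Rad50 (369), Mre11a (257), Nbn (224), Atm (188), Chek1 (178), Chek2 (150), Trp53bp1 (138) and Atr (59.4), and the ranges of Mre11a and Nbn, of Nbn and Atm, of Atm and Chek1, and of Chek2 and Trp53bp1 overlapped. Atm was sixth in this order in WT, last in Atm-/- (48.1, with a range that overlapped with that of Atr at 48.2) and ninth in Rag2c/c p53-/- (91.1, above Atr at 43.0, with overlapping ranges). Mdc1 went from the second place in WT to the seventh in Atm-/- (196) and the fourth in Rag2c/c p53-/- (360), and Nbn from the fifth to the third in both (399 and 476). Exon length counts every annotated exon, so that genes with many rarely used exons, such as Atr with 23629 bases, come out low.

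The genes around the checkpoint kinases were taken from lists. Among 13 genes of the ATR branch, 4 passed as higher and 1 as lower in Atm-/- and 4 as higher and 0 as lower in Rag2c/c p53-/- (1 lower at an unadjusted p under 0.05 in limma), with median log2 fold changes of 0.26 and 0.39. Beside the 44.6% and 37.3% of all genes tested that passed, these counts are not high. Rpa2, a subunit of the single-strand DNA binding complex, averaged 1427 counts in WT, 2757 in Atm-/- and 3269 in Rag2c/c p53-/- (log2 fold changes of 0.94 and 1.19, limma adjusted p = 0.00029 and 9e-05). Clspn, the adaptor through which ATR reaches CHK1, rose by 0.73 and 1.16, and Tipin, of the fork protection complex, by 0.74 and 0.69. Rad9a, of the clamp that activates ATR, fell by 0.68 on the log2 scale in Atm-/- (limma adjusted p = 0.015) and was at -0.53 in Rag2c/c p53-/- (adjusted p = 0.055). It has a second entry under the same symbol, and the one with the higher mean was used. Hus1, of the same clamp, was the only gene of this list to pass between the lymphoma groups, with 783 ± 186 counts in Atm-/- against 494 ± 88.9 in Rag2c/c p53-/- (log2 difference 0.65, limma adjusted p = 0.043). Its values overlapped (530 to 1026 and 399 to 596), and 1 of 13 genes is near the 11.6% of all genes that passed there.

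Of 11 checkpoint effectors, 6 passed as higher and 2 as lower in each comparison with WT, with medians of 0.68 in Atm-/- and 0.51 in Rag2c/c p53-/-, while 44.6% and 37.3% of all genes passed. Cdkn1a, the p53-induced inhibitor of cyclin-dependent kinases, rose in both, from 182 ± 39.95 counts in WT to 891 ± 363 in Atm-/- and 764 ± 232 in Rag2c/c p53-/- (log2 fold changes of 2.18 and 2.03, limma adjusted p = 0.00069 and 0.0015). The second group is p53-deficient, and what lay behind the rise, in tumor cells or in others, was not tested. Pkmyt1, an inhibitory kinase of CDK1, rose by 1.14 and 1.09. Both regulators that hold p53 down fell in both groups, Mdm4 with log2 fold changes of -1.33 and -1.60 and Mdm2 with -0.77 and -0.73. Trp53 RNA itself was at 4387, 6341 and 4498 counts in WT, 6853, 11318, 9340, 10202 and 6955 in Atm-/-, and 2616, 5461, 2018, 3863 and 3884 in the libraries labelled Rag2c/c p53-/-. It was higher than WT in every Atm-/- lymphoma (log2 fold change 0.81 ± 0.29, limma adjusted p = 0.034), lower but not past the threshold in Rag2c/c p53-/- (-0.57 ± 0.29, adjusted p = 0.13), and was the gene of this list that passed between the lymphoma groups (1.38 ± 0.25, adjusted p = 0.0033). That was 1 of 11 genes, beside 11.6% of all genes. With the score as a covariate the log2 fold changes of Trp53 were 0.13 in Atm-/- (adjusted p = 0.61) and -1.14 in Rag2c/c p53-/- (adjusted p = 0.00067), so that the call moved from the first comparison to the second. Score and group cannot be fully told apart in either comparison. The RNA that remains in Rag2c/c p53-/- is a sum over the whole gene and does not show whether a complete message is made.

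Among 20 genes of the chromatin response to breaks, 4 passed as higher and 1 as lower in each comparison with WT, with medians of 0.24 and 0.25, so that the share that passed was below the 44.6% and 37.3% of all genes. Of the list, 0 passed between the lymphoma groups in limma, with 3 at an unadjusted p under 0.05. Herc2, a ubiquitin ligase recruited to breaks, was the one that fell, from 4687 ± 910 counts in WT to 1681 ± 286 and 1653 ± 297 (log2 fold changes of -1.48 and -1.51). Mad2l2, of the shieldin complex that acts with 53BP1, rose from 390 ± 7.51 to 1215 ± 227 and 1406 ± 358 (1.62 and 1.81, limma adjusted p = 7.36e-05 and 5.63e-05). Bre, a subunit of the BRCA1-A complex, rose by 0.71 and 1.11.

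Of 9 kinases related to ATM and factors that assemble them, 3 passed as higher and 3 as lower in Atm-/- and 3 as higher and 2 as lower in Rag2c/c p53-/-, with medians of -0.38 and 0.01, beside 44.6% and 37.3% of all genes passing. The kinases Smg1, which acts in nonsense-mediated decay, and Prkdc, the end-joining kinase DNA-PKcs, fell in both groups, Smg1 from 13408 ± 2010 counts to 4402 ± 1100 and 4753 ± 1373 (log2 fold changes of -1.63 and -1.54) and Prkdc from 1658 ± 312 to 642 ± 44.6 and 725 ± 155 (-1.35 and -1.21). Mtor (-0.50 and -0.09) and Trrap (-0.71 and -0.15) of the same list passed in neither. Of the 5 factors that help to assemble such kinases, 3 rose in both groups, Ruvbl2 by 1.09 and 0.95, Ruvbl1 by 0.81 and 0.86, and Telo2 by 1.0 and 0.59. Tti2 passed in neither (-0.17 and 0.01). Tti1, a partner of TELO2, fell against WT in Atm-/- (log2 fold change -0.38, limma adjusted p = 0.045) and was at 0.17 in Rag2c/c p53-/- (adjusted p = 0.38). It was lower in Atm-/- than in Rag2c/c p53-/- (1155 ± 75.2 and 1703 ± 271 counts, log2 difference -0.55, limma adjusted p = 0.013), the only gene of this list to pass between the lymphomas. That was 1 of 9 genes, beside 11.6% of all genes. With the score as a covariate, of the calls in Atm-/- against WT 2 of 5 in the ATR branch, 6 of 8 among the effectors, 3 of 5 in the chromatin response, 5 of 6 among the kinases and their assembly factors and 4 of 6 among the genes of dividing cells were kept. In Rag2c/c p53-/- these were 3 of 4, 7 of 8, 4 of 5, 5 of 5 and 3 of 4. Other genes gained a call, so that the totals under the covariate were 5, 8, 6, 5 and 6 in Atm-/- and 5, 9, 8, 6 and 6 in Rag2c/c p53-/-, in the same order. Among the genes named here the calls against WT that were lost were those of Rad9a, Trp53, Bre and Tti1 in Atm-/- and of Tipin and Pkmyt1 in both. The calls of Hus1, Trp53 and Tti1 between the lymphoma groups were not looked at under the covariate. The medians of all genes tested were -0.02 in both comparisons with WT and 0.02 between the lymphoma groups.

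Rag2, altered in one group, had 4199 to 5409 counts in WT, 46 to 1025 in Atm-/- and 260 to 790 in Rag2c/c p53-/-, and fell in both (log2 fold changes of -4.04 and -3.22, limma adjusted p = 0.00062 and 0.0036). Since 5 of the 10 genes lie on chromosome 9, its 906 tested genes were counted as a whole. Of these, 44.0% passed in Atm-/- and 38.4% in Rag2c/c p53-/- against WT, with medians of -0.06 and -0.05. In single libraries the chromosome 9 median stood within -0.13 to 0.07 of the median of all genes on the log2 scale. The nearest gene after Atr, the exonuclease Xrn1, fell in both groups (log2 fold changes of -1.61 and -1.44), and Stt3a, next to Chek1, passed in neither (0.15 and 0.25).

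The genes whose profiles over the 13 libraries were most like those of the checkpoint genes were ranked by the root mean square difference of their centred log2 values. For Atm these were Khnyn (0.258), Klhl11 (0.273) and Zfp780b (0.275), and among those for Atr were Smarcad1 (0.135) and Cep162 (0.148). For Chek1 they were L3mbtl2 (0.117), Incenp (0.118) and Ssrp1 (0.118), and for Chek2 Nudt5 (0.124), Slc5a6 (0.137) and Mcu (0.142). Among the nearest to H2afx were Eif5a (0.111) and Ndufa12 (0.129) and among those to Trp53bp1 Man1b1 (0.113) and Eif4g3 (0.135), and Mdc1 was closest to Casp8ap2 (0.170), Pfkfb4 (0.190) and Zfp609 (0.195). The nearest to Nbn were Gsg2 (0.162), Dna2 (0.178) and Clspn (0.190), to Mre11a Gin1 (0.094), Copg1 (0.105) and Derl1 (0.110), and to Rad50 9530068E07Rik (0.102), Nadk (0.142) and Eif4enif1 (0.160). None of the 10 genes was among the nearest 3 of another.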

How the data were processed

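PolyA RNA of 13 mice was sequenced from stranded mRNA libraries. Per the labels, reads were processed with bcl2fastq 1.8.3, STAR 2.4.0g1, Picard and DESeq2 1.6.3 on mm10/GRCm38, and the counter, annotation release and strand setting were not given in the sources used here. The deposited score values are counts that the authors normalized and rounded to whole numbers, with library totals of 19788898 to 21591289. They are not raw counts and whole reads could not be recovered, so no count test was run, and depths are estimates from the worth of 1 read. The table's other columns hold group means and the authors' fold changes and p-values of the group comparisons, and were not used.

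Genes that reached 10 in 3 or more libraries were tested. limma 3.58.1 (R 4.3.3; trend and robust) was fitted to log2(value + 1) of all 13 libraries in 3 groups and checked on simulated data. Mean log2 ratios were compared in exact permutation tests (two-sided) with Benjamini-Hochberg adjustment over 15 tests (scipy 1.17.1). Exon lengths are unions of GENCODE M21 exons. Named genes were all 10 members, the genes of each list that passed with the highest and lowest log2 fold change in each comparison (up to 2 each way), Trp53, Rag2 and Npat, neighbours, and the 3 nearest profiles, of which some are not reported here. The genes and lists were chosen with earlier results of these data known. Alternatives were other scalings, pseudocounts, filters, moderation, library weights, group subsets and leaving out each library. After seeing the data, a depth covariate, the long-minus-short score as a covariate and leaving out the shallowest library of each group were added.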

Additional observations from a re-analysis of the deposited data

Results flagged for a closer look

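Values far from the others of their group were looked for in 32 sets of 5 lymphomas, of which chance marks about 1 in 20. In Atm-/- lymphomas, replicate 2 had a Chek1 count of 836 against 1384 to 1584 in the others, a Chek1 to Chek2 ratio of 1.04 against 1.64 to 1.77, and a Trp53bp1 to Mdc1 ratio of 2.29 against 0.889 to 1.02. It was the shallowest library of its group and had its lowest long-minus-short score, -0.78. Replicate 3 of the same group had a Mre11a to Rad50 ratio of 0.502 against 0.721 to 0.776, with the highest Rad50 count of the group, 3060. In Rag2c/c p53-/- lymphomas, replicate 1 had the highest Rad50 count, 3582 against 2223 to 2594, and the lowest Mre11a to Rad50 ratio, 0.357 against 0.597 to 0.678. None of the 10 genes and none of the 5 ratios tested passed an adjusted p under 0.05 between the lymphoma groups.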

How the results depend on the processing

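The number of genes that passed was 6 in Atm-/- against WT, 5 in Rag2c/c p53-/- against WT and 0 between the lymphoma groups. Leaving out each library in turn gave 4 to 6, 3 to 5 and 0 to 2. Against WT it was 9 and 7 with library weights, and 4 and 4 with the score covariate. With at least a 2-fold change required it was 3 and 2 for the comparisons with WT, and in Rag2c/c p53-/- 3 without trend and robust moderation. Between the lymphoma groups, 1 passed with equal upper quartiles, 2 with library weights and, among the settings added after seeing the data, 1 with the depth covariate, 3 with the score covariate and 1 without the shallowest library of each group. The share of all genes that passed ran from 29.1% to 70.1% in Atm-/- and from 22.5% to 60.6% in Rag2c/c p53-/- against WT, with the highest values under library weights. Between the lymphoma groups it ran from 6.2% to 18.7%, with the highest value under the score covariate.

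Signs turned with the score covariate for Atr (0.0011) and Trp53bp1 (0.22) in Atm-/- against WT, for Trp53bp1 (0.39) and Mdc1 (0.40) in Rag2c/c p53-/- against WT, and for H2afx between the lymphoma groups (-0.0006). They turned with the depth covariate for Trp53bp1 (0.037) and with equal upper quartiles for Mre11a (0.020) in Rag2c/c p53-/-. Without single libraries, the log2 fold change ran from -0.20 to 0.079 for Trp53bp1 and from -0.058 to 0.042 for Mre11a in Rag2c/c p53-/- against WT, and between the lymphoma groups from -0.020 to 0.32 for H2afx and from -0.23 to 0.093 for the Nbn to Rad50 ratio. None of the results that turned had passed. Of 780 alternative values of log2 fold changes, 723 kept direction and call, 27 lost the call, 17 gained it and 13 turned. Of 145 alternative ratio tests, 95 kept direction and their side of an unadjusted p of 0.05, 48 rose above it, 1 fell below it and 1 turned. The smallest p that the exact permutation test allows is 0.0952 with 5 against 2 libraries and 0.0571 with 4 against 3. The causes were not tested. No paired analysis was possible because the labels give the groups no shared replicate numbers. Depth limits low values most, and all 10 genes had at least 208 counts in every library.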
